A study of Mus musculus with 12 samples.

Results

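A pair of mouse embryonic stem (ES) cell lines, one labelled Dazl-GFP and one labelled Stella-GFP, was compared in serum-free medium by the arrays of days 0, 3 and 10, paired by day. The comparison takes 6 of the 12 one-colour arrays of the series, 1 array per line and day, chosen by their labels, and is restricted to genes on the 19 autosomes. The lines are described as independent, each carries a green fluorescent protein (GFP) construct named after a germ cell gene, and neither the strain, sex nor origin of the lines is given in the sources used here. Cells of both lines grew on γ-irradiated mouse embryonic fibroblast feeders with leukemia inhibitory factor (LIF) in serum-free B27N2 medium, which the labels call the 2i condition. Per the labels the 2i experiments used 2 inhibitors, PD0325901 against MEK (1 µM) and Kenpaullone against GSK3β (5 µM); they do not say what the cells of day 0 had received. The same lines in medium with 15% fetal bovine serum (FBS), again with LIF on feeders and 1 array per line and day, served as a second set of 3 pairs; whether those cells received inhibitors is not stated.

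ES cells come from the inner cell mass of the blastocyst and renew themselves through a network of transcription factors that includes Pou5f1, Sox2 and Nanog. LIF and the block of MEK and GSK3 hold them in the naive state, in which Klf and Esrr factors are active and genes of the later epiblast are low. Dazl encodes an RNA-binding protein of germ cells, and Dppa3 (Stella) encodes a protein of the oocyte and early embryo that shields DNA methylation. The comparison asks which genes set these lines apart when medium and day are the same.

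Signals are given as log2 of the processed spot intensity minus the 75th percentile of the same array, so 0 is that percentile, and a line difference is Dazl-GFP minus Stella-GFP on that scale. Between 67.8% and 70.5% of each array's spots were well above background, and the 75th percentile was 602 to 890 intensity units. The 5 ES cell markers were well above background on all 6 arrays, with a mean level of 4.10 to 4.31 in the Dazl-GFP line and 4.26 to 4.38 in the Stella-GFP line. The day 10 pair lay on 1 slide, whereas the Dazl-GFP arrays of days 0 and 3 lay on another slide than their Stella-GFP partners. The median difference over all genes was -0.112 on day 0, -0.0451 on day 3 and 0.0551 on day 10, and the differences of days 0 and 3 correlated over the genes at 0.53, against 0.17 and 0.24 for day 10 with days 0 and 3.

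In limma's fit 56 of 15431 tested genes differed between the lines at an adjusted p under 0.05, which is 0.363% of the genes. The Dazl-GFP line was higher for 25 of them (0.162%) and lower for 31 (0.201%), and 49 differed by at least 2-fold. With the authors' processed values 48 genes passed, 29 higher and 19 lower. All 56 had the same sign on the 3 days, as did 39.1% of all tested genes, and for 46 of the 56 the lines did not overlap over the days, against 7.25% of all genes. The day 10 pair alone, which lay within a slide, gave 0.718 to 1.36 of the 3-day difference for these genes, with the same sign for all 56. Day 10 is 1 of the pairs that chose these genes, so the day-by-day counts describe them and give no separate support. At an unadjusted p under 0.05 there were 2001 genes, of which 734 were higher (4.76%) and 1267 lower (8.21%).

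The number of genes that passed depended on the arrays. Leaving out either array of the serum-free pair left 1 gene for day 0, 4 for day 3 and 7 for day 10, and leaving out either array of an FBS pair, which only shares the estimate of the spread, left 107 genes for day 0, 25 for day 3 and 24 for day 10. No gene passed in limma with the slide as a block, with 1897 at an unadjusted p under 0.05, and 11 passed without the pairing by day. There is 1 array per line and day, and nothing says that the days are separate cultures, so the p-values measure only the spread of the line difference over these arrays.

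The gene with the highest fitted difference was Apoa2, an apolipoprotein of high-density lipoprotein on chromosome 1. Its level in that line was -1.28, -2.02 and -0.85 on days 0, 3 and 10, and in the Stella-GFP line -6.81, -6.55 and -6.26, where it was not well above background on any array. Measured against the lowest signal that counts as above background on each array, Apoa2 was at least 21.1-fold higher in the Dazl-GFP line (fitted difference 5.16, SE 0.22, adjusted p = 0.00142). In the same direction Trim12a, of the tripartite motif family, which has roles in antiviral defence, read -0.57, 0.59 and 1.03 against -3.69, -5.00 and -3.85. Its fitted difference was 4.53 (SE 0.50, adjusted p = 0.0253), and a second probe gave 3.73. Nod1, a cytoplasmic sensor of bacterial peptidoglycan, read 2.74, 4.13 and 4.31 against -0.58, 0.30 and -0.19, a difference of 3.88 (SE 0.34, adjusted p = 0.0114) or 14.7-fold. The lines did not overlap for any of these genes.

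The chemokine gene Ccl27a read 0.44, 0.80 and 0.16 in the Dazl-GFP line and -2.81, -2.23 and -3.34 in the Stella-GFP line, a difference of 3.26 (SE 0.18, adjusted p = 0.0023). Prim2, the large subunit of the DNA primase, stayed at 2.73 to 2.89 against -0.10 to 0.45, a difference of 2.70 (SE 0.24, adjusted p = 0.0114). For both genes the days of a line lay closer to each other than to the other line. Of the genes with specialised roles in sensory cells, the irritant channel Trpa1 was higher by 2.55 (adjusted p = 0.0417), Myo7a, a myosin of hair cells, by 2.15 (adjusted p = 0.00843) and Rpgrip1, a protein of the photoreceptor cilium, by 2.07 (adjusted p = 0.00371). Musculin (Msc), a basic helix-loop-helix repressor, was higher by 2.20 (adjusted p = 0.0335), the meiotic axis gene Hormad2 by 2.06 (adjusted p = 0.0114), the calcium-binding tescalcin gene Tesc by 2.01 (adjusted p = 0.0469) and Rpe, an enzyme of the pentose phosphate pathway, by 1.60 (adjusted p = 0.01). With normexp background correction, which pulls dim signals together, Apoa2 gave 2.12, Trpa1 1.26, Msc 1.37, Myo7a 1.06 and Hormad2 1.36. With the mean of all probes of a gene in place of the brightest, Prim2 gave 1.48, Rpe 1.05 (adjusted p = 0.0526) and Rpgrip1 0.77 (adjusted p = 0.146). That mean also takes in probes that did not meet the background filter. The other Rpgrip1 probe that met it gave 2.25 (adjusted p = 0.0015 over all probes).

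At the other end Tmem45a2, a transmembrane protein gene on chromosome 16, read -7.88, -8.02 and -7.48 in the Dazl-GFP line, where no array had it above background, and -3.68, -4.69 and -3.66 in the Stella-GFP line. It was at least 3.86-fold lower in the Dazl-GFP line (fitted difference -3.78, SE 0.29, adjusted p = 0.00777). Plagl1, an imprinted gene that encodes a zinc finger regulator of growth, read -3.14, -3.56 and -1.86 against 0.33, 0.14 and 0.96. Every array of the Dazl-GFP line lay below every array of the Stella-GFP line, with a difference of -3.33 (SE 0.27, adjusted p = 0.00925) or 10.0-fold at the probe used, and -1.03 at the other probe (adjusted p = 0.129 over all probes). Slc4a3, an anion exchanger, read -3.00, -3.41 and -3.19 against -0.39, -0.49 and -0.65, a difference of -2.69 (SE 0.14, adjusted p = 0.00191). Obsl1, a cytoskeletal adaptor gene that lies near it on chromosome 1, read 0.16, -0.17 and 0.28 against 2.92, 2.54 and 2.80, a difference of -2.67 (SE 0.16, adjusted p = 0.00322), and its other probes gave -2.73 and -2.62.

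Lower in the Dazl-GFP line were also Pdlim3, an actinin-binding protein of the muscle Z line, by -2.37 (adjusted p = 0.00472), and Apoc2, the cofactor of lipoprotein lipase, by -2.25 (adjusted p = 0.0114). Of the enzymes, the phosphatidylinositol 4-kinase gene Pi4k2b was lower by -2.17 (adjusted p = 0.0129), the brain creatine kinase gene Ckb by -2.02 (adjusted p = 0.0232) and the soluble epoxide hydrolase gene Ephx2 by -1.92 (adjusted p = 0.0268). Ckb read 1.72, 3.50 and 3.07 in the Dazl-GFP line and 3.85, 5.23 and 5.26 in the Stella-GFP line, and a second probe gave -2.05. Fgf15, a growth factor gene of the epiblast and gut, read -2.34, -5.31 and -2.77 against -0.28, -3.41 and -1.01. Its levels overlapped between the lines because day 3 was low in both, yet the difference was -2.06, -1.89 and -1.76 on the days (fitted -1.90, SE 0.23, adjusted p = 0.0324). Tenm2, a neuronal adhesion gene that was above background on 2 Stella-GFP arrays and no Dazl-GFP array, gave -1.98 (SE 0.19, adjusted p = 0.015). That value takes in signals not above background in both lines, so no least fold is given for it. Hoatz was above background on 1 Dazl-GFP and 2 Stella-GFP arrays and gave -1.81 (adjusted p = 0.0442). With normexp the dim genes gave smaller values, -0.84 for Tmem45a2, -0.61 for Tenm2 and -0.67 for Hoatz, and with the mean of all probes Tmem45a2 gave -1.98 and Plagl1 -2.18.

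**Figure D1:**
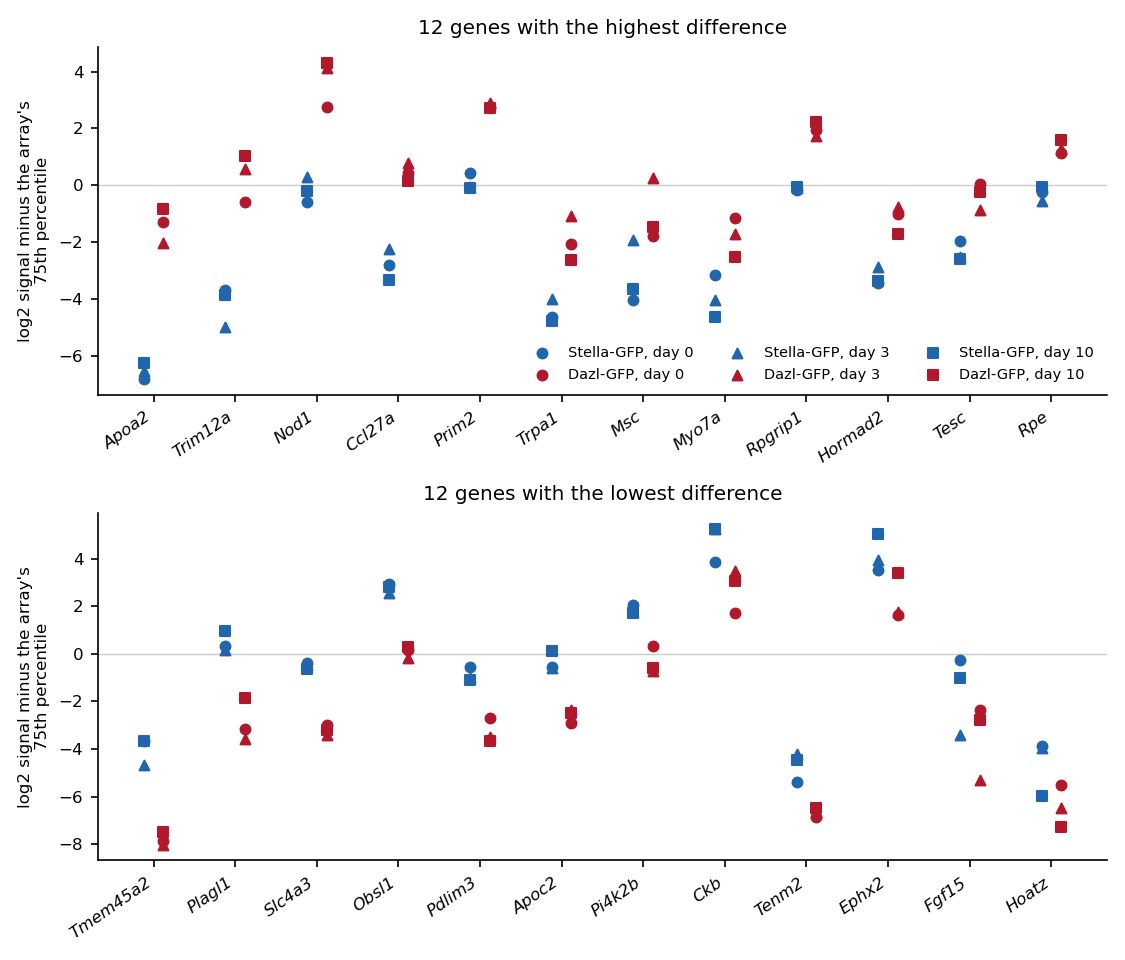
Level of the 12 genes with the highest and the 12 with the lowest line difference among those that passed, on each of the 6 serum-free arrays; the vertical axis is log2 signal minus the array's 75th percentile, red marks are the Dazl-GFP line, blue marks the Stella-GFP line, and the shape gives the day. The red marks of Apoa2 sit between -2.02 and -0.85 and the blue ones between -6.81 and -6.26, while the marks of Fgf15 and Hoatz overlap between the lines.

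Among the genes that passed, 2 belong to the naive pluripotency network, and they went in opposite directions. Klf5, a Krüppel-like factor of the naive state, was higher in the Dazl-GFP line by 1.13 (SE 0.15, adjusted p = 0.0417), with 4.31, 4.05 and 3.61 against 2.95, 3.07 and 2.56. Its other probe gave 0.895 (adjusted p = 0.337 over all probes). Zfp42 (Rex1), a widely used naive marker, was lower by -0.90 (SE 0.11, adjusted p = 0.0401), with 6.35, 6.50 and 6.48 against 7.32, 7.42 and 7.29. The other Zfp42 probe gave -1.03 (adjusted p = 0.026 over all probes). The other 14 of the 16 tested naive genes did not pass. The median of the list was 0.13, and 0.15, 0.22 and -0.08 on days 0, 3 and 10, with 9 genes higher and 7 lower (57.2% of all genes lower). At an unadjusted p under 0.05, 4 were higher and 2 lower (4.76% and 8.21% of all genes), with Klf5 and Zfp42 among them. Gbx2 gave 0.89 (adjusted p = 0.131), Tet2 0.53 (adjusted p = 0.195) and Esrrb 0.20, whereas Dppa3 gave -0.93 and Klf2 -0.45. Of the 13 tested genes of the primed and formative epiblast Fgf15 alone passed and 12 did not. In this list 10 genes were lower and 3 higher, and 4 were lower at an unadjusted p under 0.05 (8.21% of all genes). The median of the list was -0.37, and -0.53, -0.31 and 0.15 on days 0, 3 and 10. Fgf5 gave -1.65 (adjusted p = 0.0739), the de novo methyltransferase Dnmt3a -0.99 (adjusted p = 0.106) and Otx2 -0.70 (adjusted p = 0.277), whereas Foxd3 gave 0.495 (adjusted p = 0.389).

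The genes for which the reporters are named did not pass. Dazl itself read -1.01, 0.69 and 0.90 in the Dazl-GFP line and -2.68, -1.63 and -2.29 in the Stella-GFP line, which did not overlap. The difference was 1.67, 2.32 and 3.18 on days 0, 3 and 10 (fitted 2.39, SE 0.52, adjusted p = 0.136), and the other Dazl probe gave 0.72. The labels do not give the construct. Dppa3 gave -1.59, -0.84 and -0.37 on the days, a fitted -0.93 (SE 0.32, adjusted p = 0.299) that was -0.61 without the day 0 pair. Nanog gave 0.35, Pou5f1 -0.14, Tet1 -0.19 and Tet3 0.32, each with an SE of 0.15 to 0.31 and an adjusted p of 0.379 or more. Pou5f1 gave 0.13 without the day 10 pair, and Tet3 gave -0.13 in the day 10 pair alone and -0.07 with the mean of its probes.

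The promoters of 3 of these genes are shown because they belong to the gene with the highest fitted difference (Apoa2), the one imprinted gene that passed (Plagl1) and the reporter's own name (Dazl). Each is the 250 bases before a transcription start in the RefSeq table of build GRCm38.p6, read 5′ to 3′ on the gene's strand, with CpG dinucleotides in capitals. Apoa2 has 2 starts in the table and the one listed first is given (chr1:171224804-171225053, plus strand). Plagl1 is at chr10:13090582-13090831 (plus strand) and Dazl at chr17:50293621-50293870 (minus strand).
Apoa2: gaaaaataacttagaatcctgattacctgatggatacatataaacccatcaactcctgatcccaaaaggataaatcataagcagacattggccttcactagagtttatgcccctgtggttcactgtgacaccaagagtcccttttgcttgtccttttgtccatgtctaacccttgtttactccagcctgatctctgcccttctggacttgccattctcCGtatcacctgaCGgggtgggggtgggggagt
Plagl1: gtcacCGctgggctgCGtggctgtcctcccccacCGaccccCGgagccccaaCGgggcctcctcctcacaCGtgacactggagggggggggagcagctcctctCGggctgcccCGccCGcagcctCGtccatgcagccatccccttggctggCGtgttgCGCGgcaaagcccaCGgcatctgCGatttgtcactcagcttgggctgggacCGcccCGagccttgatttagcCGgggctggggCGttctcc
Dazl: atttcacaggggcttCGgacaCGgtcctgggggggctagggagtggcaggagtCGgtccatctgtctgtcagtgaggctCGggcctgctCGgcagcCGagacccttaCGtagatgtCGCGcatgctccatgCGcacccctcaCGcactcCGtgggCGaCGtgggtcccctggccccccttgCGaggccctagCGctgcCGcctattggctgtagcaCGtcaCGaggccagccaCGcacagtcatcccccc

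The Apoa2 window holds 2 CpG dinucleotides, a number that 81.2% of the 32851 promoters in the table reach. The windows of Plagl1 and Dazl hold 19 and 20, which 19.7% and 17.9% of the promoters reach. DNA methylation was not measured on these arrays.

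The second question was whether the line difference was the same in FBS, on the other arrays of the same lines. All 56 genes had the same sign in FBS, 55 of them on each of the 3 days. The share of all tested genes that kept their sign in FBS was not counted, so these counts stand without a background. The FBS arrays share the estimate of the spread by which these genes were chosen, so the calls in the 2 media are not independent. Over all tested genes the differences of single serum-free and FBS pairs correlated at 0.04 to 0.35. The lines lay on different slides for the FBS pairs of days 3 and 10. In FBS 170 genes passed, 1.10% of those tested, and 44 genes passed in both media, which is 78.6% of the serum-free calls and 25.9% of the FBS calls. Plagl1 gave -3.23 in FBS (adjusted p = 0.00905), Ccl27a 3.12 (adjusted p = 0.00326), Nod1 4.08 (adjusted p = 0.00905) and Obsl1 -2.21 (adjusted p = 0.00686). Apoa2, above background on 4 of the 6 FBS arrays, was 3.60 in FBS (adjusted p = 0.00326), Pdlim3 -1.04 (adjusted p = 0.0438) and Apoc2 -3.10 (adjusted p = 0.00334). Hoatz gave -0.12 in FBS (adjusted p = 0.797). Dazl gave 2.67 in FBS (adjusted p = 0.0765).

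No gene passed the test of the difference between the media, the line by medium interaction in limma. There were 1600 genes at an unadjusted p under 0.05, and the smallest adjusted p was 0.352. Of the named genes, Cyp26a1, which degrades retinoic acid, had a line difference of 0.93 in serum-free medium and -0.94 in FBS (interaction 1.87, SE 0.30, adjusted p = 0.464). Ptger3, a prostaglandin receptor gene, gave -0.25 against -1.46, Pilrb2 -0.01 against -1.29, Enox1 0.02 against -1.07 and Dhh, a hedgehog ligand, 0.86 against -0.27. Lower in serum-free medium than in FBS were the line differences of Olfr1189 (-0.62 against 1.82), Lrch3 (-0.13 against 1.29), Serpinb11 (-0.51 against 1.84), Ucn (-0.45 against 0.63) and Gucy1b2, a guanylate cyclase subunit (-0.85 against 1.35). These 10 have the smallest unadjusted p in each direction among genes without clone names, and they did not pass; the smallest of all belongs to B230311B06Rik (interaction -1.74). Olfr1189, Lrch3, Serpinb11 and Ptger3 were above background on 2 or 3 of the 6 FBS arrays.

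**Figure D2:**
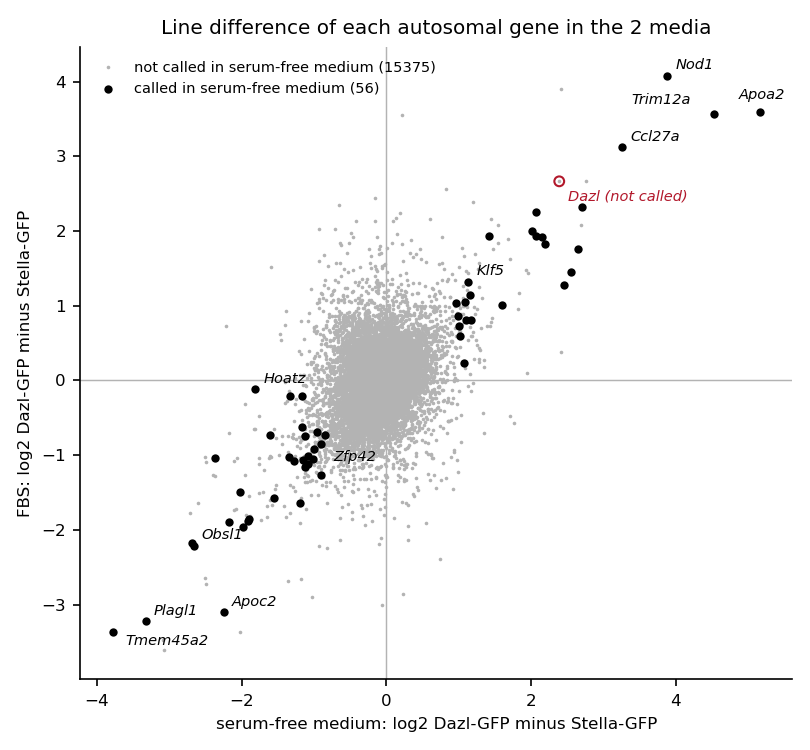
Line difference of each of the 15431 tested autosomal genes in serum-free medium (horizontal axis) and in FBS (vertical axis), both as log2 Dazl-GFP minus Stella-GFP over 3 days. The 56 genes that passed in serum-free medium (black) have the same sign in both media, with Hoatz at -0.12 in FBS, and Dazl (red ring) at 2.39 and 2.67 did not pass.

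The genes that differed were then placed in chromosome order. Of the 56 genes, 17 lay in 6 stretches in which neighbours that passed were at most 10 tested genes apart, a distance chosen after the data were seen, and in 5 of the 6 stretches the genes that passed shared 1 direction. On chromosome 1 Msc and Trpa1 were adjacent among the tested genes and both higher. Obsl1, Slc4a3 and the adaptor gene Ap1s3 (-1.20) were all lower within 10 tested genes. Of these 10 genes 7 were lower (57.2% of all genes), 5 of them at an unadjusted p under 0.05 (8.21% of all genes). The counts of lower genes include the 3 that passed, by which the stretch was chosen. The remaining 3 genes were higher, all at that threshold (4.76% of all genes). On chromosome 7 Trim6 (0.99, adjusted p = 0.0248) and Trim12a, members of a cluster of tripartite motif genes, were both higher with 1 tested gene between them. The 4 other Trim6 probes gave -0.26, 0.32, 0.25 and -0.28, with adjusted p of 0.472 to 0.635 over all probes. On chromosome 5 Lgi2 (-1.13) and Pi4k2b were both lower. The stretch on chromosome 8 was mixed, with Mtmr7 higher by 1.16 and Zfp42 and Pdlim3 lower.

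The longest run was at the distal end of chromosome 12, from Zfp839 to the DNA repair gene Xrcc3, the first and last gene that passed there. All 18 tested genes of this stretch were lower in the Dazl-GFP line, against 57.2% of all genes. Of the 18, 16 were lower at an unadjusted p under 0.05 (8.21% of all genes). Both counts include the 5 genes that passed, by which the stretch was chosen and bounded, so those 5 give no separate support. The median difference was -0.80 on days 0 and 3 and -0.78 on day 10, the pair within 1 slide, and -0.89 for the 3-day differences. Zfp839 gave -1.17 (adjusted p = 0.0324), Cdc42bpb, a kinase of the actin skeleton, -0.84 (adjusted p = 0.0417), Ckb -2.02, the tRNA methyltransferase gene Trmt61a -1.12 (adjusted p = 0.0265) and Xrcc3 -1.003 (adjusted p = 0.0335). Near the threshold were the translation factor gene Eif5 at -0.93, the kinase gene Mark3 at -0.96 and the signalling adaptor gene Traf3 at -0.66. The smallest difference in the stretch was that of Tnfaip2 (-0.26), and Amn, a receptor subunit gene of the visceral endoderm, ranged from 0.08 on day 0 to -1.90 on day 10.

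The ends of the stretch come from serum-free differences, with a spread that the FBS arrays help to estimate. In FBS 17 of the 18 genes were lower, 15 on each of the 3 days, 11 passed (against 1.10% of all genes), and the median was -0.84. Tecpr2 was the gene that was not lower, at 0.25. The 10 tested genes before the stretch had a median of -0.25 in serum-free medium and -0.05 in FBS, and the 10 after it -0.31 and -0.12. Dio3, the deiodinase gene that closes the imprinted Dlk1-Dio3 domain, lies before the stretch and gave -1.08, while Meg3 of that domain gave -0.64 and Dlk1 -0.06, none of which passed. The median over 25 neighbouring genes was lowest on chromosome 12 from Dio3 to Klc1, at -0.68 in serum-free medium and -0.65 in FBS.

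**Figure D3:**
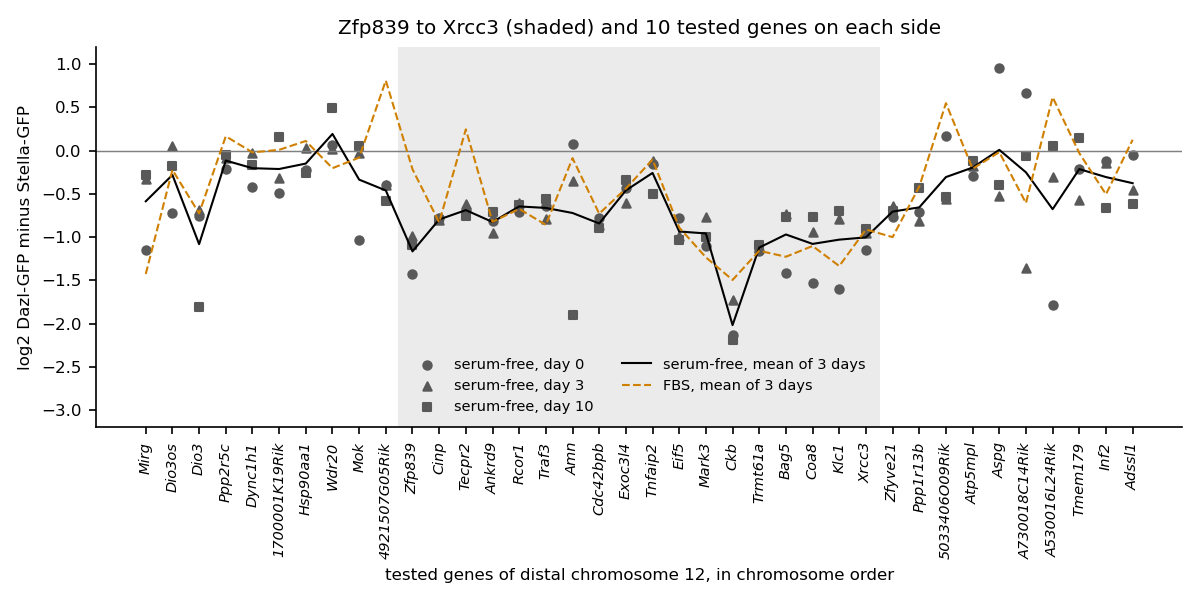
Line difference of the 18 tested genes from Zfp839 to Xrcc3 on chromosome 12 (shaded) and of 10 tested genes on each side, in chromosome order; marks are the 3 serum-free days, the black line their mean and the dashed line the mean of the 3 FBS days, on a log2 scale. The black line stays below 0 across the shaded genes, with a median of -0.89 and its lowest point at Ckb, and returns towards 0 on both sides.

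One whole autosome stood apart from the others. The 541 tested genes of chromosome 14 had a median difference of -0.28, against -0.04 for all autosomal genes, and 86.1% of them were lower in the Dazl-GFP line, against 57.2% of all genes. Relative to all genes of the same pair, the chromosome's median was -0.24 on day 0, -0.30 on day 3 and -0.18 on day 10, a mean of -0.24 ± 0.061 (SD, n = 3 pairs). In FBS the mean was -0.25 ± 0.070 (SD, n = 3 pairs). The other 18 autosomes gave means of -0.022 to 0.050 over the serum-free pairs, with -0.037 and 0.073 as the lowest and highest single pair. In the two-sided exact sign-flip test over the 6 pairs chromosomes 14 and 1 reached the smallest p the design allows, 0.03125, which is 0.297 adjusted over the 19 autosomes.

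The lower level ran along chromosome 14 and was not set by a few genes. All 517 windows of 25 neighbouring tested genes had a median below 0, from -0.41 (Slc39a2 to Mmp14) to -0.064 (Rb1 to Gm6994). The last value is close to the -0.044 of all tested genes. On chromosome 14, 280 genes (51.8%) were lower on each of the 3 days, against 22.5% of all autosomal genes, and 144 (26.6%) were lower at an unadjusted p under 0.05, against 8.21%. When all tested genes were divided by mean signal into 3 classes of equal size, the chromosome's median was -0.29 in the brightest class relative to all genes of that class, in the middle class -0.26 and in the dimmest -0.07. Of the chromosome's genes 6 passed (1.11%, against 0.363% of all tested genes), and they are not all lower. Ephx2, Rgcc (-1.60, a regulator of the cell cycle), Plac9a (-1.56) and the mitochondrial calcium uptake gene Micu2 (-1.28, and -0.49 at its other probe) were lower. Rpgrip1 and Klf5 were higher. Under the other processing settings the chromosome's relative median lay between -0.27 and -0.17.

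**Figure D4:**
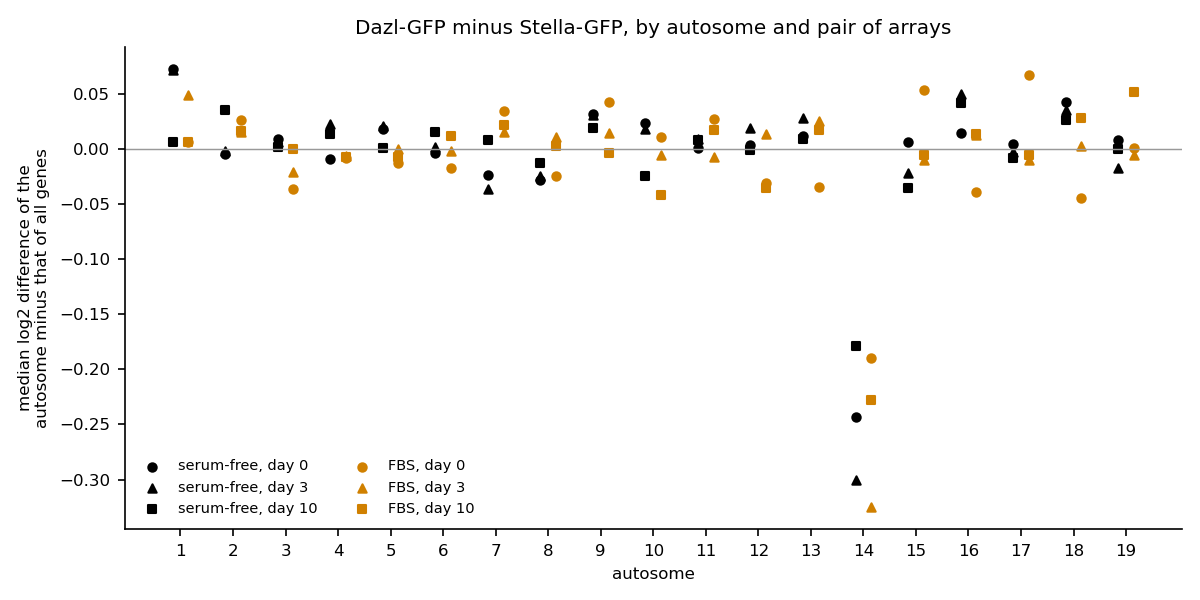
Median line difference of each autosome minus that of all autosomal genes, for the 3 serum-free pairs (black) and the 3 FBS pairs (orange) of arrays; the shape gives the day and the vertical axis is on the log2 scale. Chromosome 14 lies between -0.30 and -0.18 in serum-free medium, and no other autosome is below -0.037 there.

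Gene groups were then read as lists, each beside the median of all tested genes, -0.044. The list with the lowest median was that of genes of the 2-cell embryo, a state that a small share of ES cells enters in culture. Of its 16 listed genes 8 were tested and none passed. Of those tested 7 were lower (57.2% of all genes), 6 of them at an unadjusted p under 0.05 (8.21% of all genes). The median was -1.05 in serum-free medium and -1.10 in FBS. The FBS median rests on day 0: it was -2.12 on day 0, -0.20 on day 3 and -0.59 on day 10, and -0.33 without the day 0 pair. Zscan4c, of a cluster that lengthens telomeres, gave -2.77, -2.50 and -2.26 on days 0, 3 and 10 (adjusted p = 0.217), Usp17la gave -1.78, -2.03 and -1.83 (adjusted p = 0.2) and Tcstv1 -1.78, -1.91 and -1.39 (adjusted p = 0.316). Zscan4c, Usp17la and the Tcst genes belong to families of near-identical copies, so a probe may read more than 1 gene. An array of pooled cells cannot tell fewer cells of a state from less RNA per cell.

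Imprinted genes are expressed from the copy of 1 parent. Of 36 tested imprinted genes Plagl1 alone passed, 35 did not, and the median was -0.21. In this list 26 genes were lower (57.2% of all genes) and 10 higher. At an unadjusted p under 0.05, 7 were lower, Plagl1 among them, and 1 was higher (8.21% and 4.76% of all genes). Nnat, a neuronal imprinted gene, gave -3.73, -1.34 and -2.42 (adjusted p = 0.112), with -2.72 in FBS from the fit, where the day 0 Dazl-GFP value is missing and the other pairs gave -3.31 and -2.14. Meg3 gave -0.64 (adjusted p = 0.245), Magel2 -0.53 (adjusted p = 0.374) and Grb10 0.40 (adjusted p = 0.312). H19 gave -0.60, Igf2 -0.41, Igf2r -0.19 and Peg3 0.11. Of the 16 genes of DNA methylation and demethylation none passed, with a median of -0.056: Dnmt1 gave -0.08, Uhrf1 0.06 and Dnmt3b -0.16.

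None of the 24 tested genes on the germ cell and meiosis list passed. The list does not hold the meiotic axis gene Hormad2, which did pass. On the list 4 genes were higher and 5 lower at an unadjusted p under 0.05 (4.76% and 8.21% of all genes), and the median was -0.21. Stag3, a cohesin subunit of meiosis, gave 1.28 (adjusted p = 0.182) and Kit, the receptor of germ cell precursors, 0.54 (adjusted p = 0.26), whereas Nanos3, a factor that keeps primordial germ cells alive, gave -1.59 (adjusted p = 0.0706) and the synaptonemal complex genes Sycp1 and Sycp3 gave -1.15 and -0.90. Of 9 tested Nodal targets none passed and 4 were lower at an unadjusted p under 0.05 (8.21% of all genes), with Lefty1 at -0.69 (adjusted p = 0.155). The 8 tested protocadherin and related genes were all negative, as were 57.2% of all genes. Their median was -0.46, with Cdhr1 at -1.49 (adjusted p = 0.0985) and 3 lower at an unadjusted p under 0.05 (8.21% of all genes). For genes that vary among inbred mouse strains, 18 were tested, Trim12a passed, 17 did not, and Glo1 gave -0.55 and Nnt -0.46.

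The lists of other cells differed by day. Fibroblast genes, which mark the feeder layer, had a median of -0.26, -0.54 and -0.69 on days 0, 3 and 10. None of the 20 tested passed and 19 were negative, against 57.2% of all genes. At an unadjusted p under 0.05 there were 8, all lower (8.21% of all genes), among them Twist2 (-0.70), Col1a1 (-0.65) and S100a4 (-0.75). The mean of the 10 feeder markers, all above background on the 6 arrays, was -0.02, -1.74 and -0.67 in the Dazl-GFP line and 0.33, -1.08 and 0.22 in the Stella-GFP line. The difference of -0.63 ± 0.28 (SD, n = 3 pairs) had a two-sided exact sign-flip p of 0.25, the smallest that 3 pairs allow. The part of feeder RNA in the other differences was not tested.

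Primitive endoderm genes, which mark the precursors of the yolk sac, had the highest median of all lists, 0.40. It was 0.56 on day 0, 0.96 on day 3 and -0.13 on day 10, and in FBS 0.61 on day 0, -0.003 on day 3 and -0.12 on day 10; the pairs within 1 slide were day 10 in serum-free medium and day 0 in FBS. None of 18 tested passed: Gata6 gave 1.82, 1.11 and -0.04, Lama1 1.39, 1.44 and 0.17 and Dab2 1.17, 1.70 and -0.10. Macrophage genes ran from -0.56 on day 0 to 0.62 on day 10, with 15 tested and none past the threshold, and interferon response genes from 0.05 to -0.59, with 21 tested and none past it. Lists of cell division (median 0.006), glycolysis (-0.018), the mitochondrial respiratory chain (-0.059), sterol synthesis (0.028), LIF-STAT3 targets (0.043), p53 targets (-0.014) and BMP targets (0.013) lay close to the median of all genes and held no gene that passed.

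**Figure D5:**
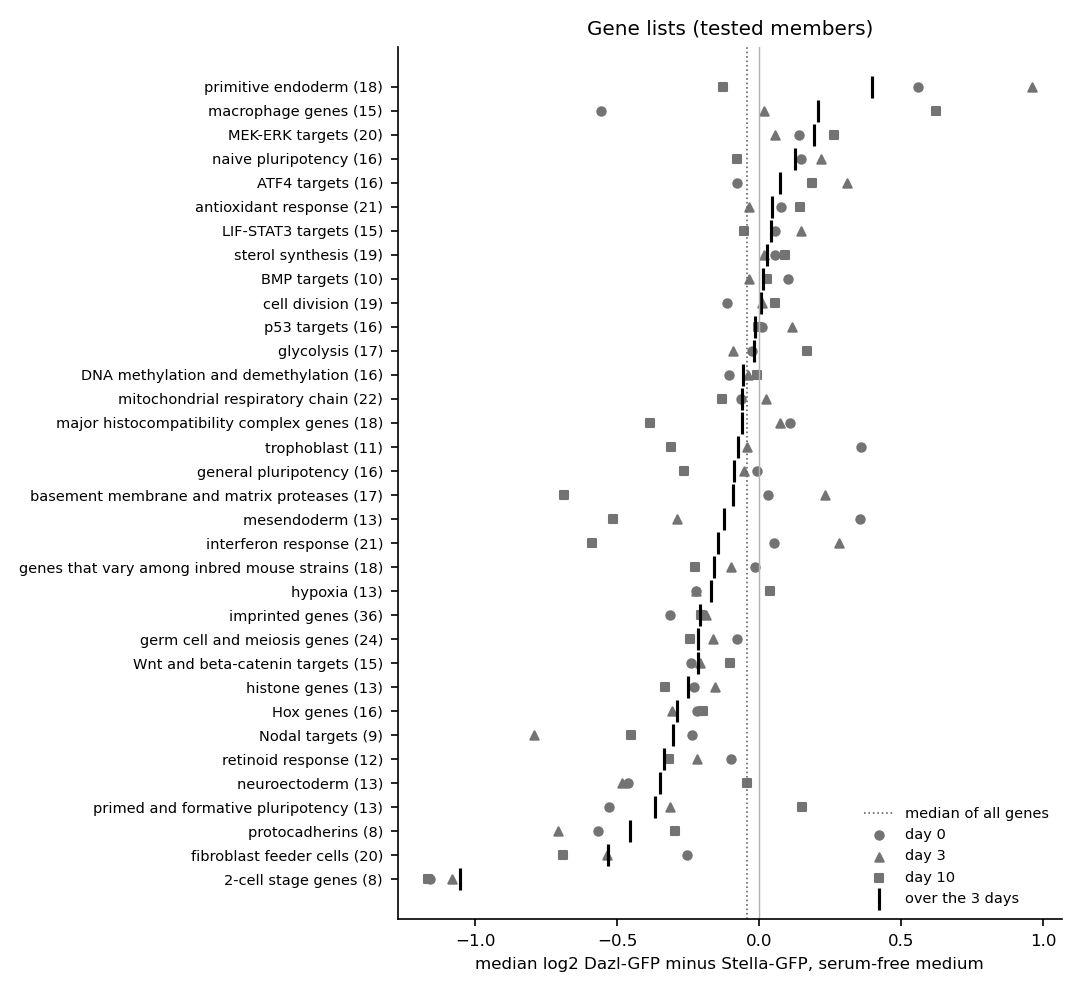
Median line difference over the tested members of each list in serum-free medium, by day (marks) and over the 3 days (bars), with the number of tested members after the name; the horizontal axis is log2 Dazl-GFP minus Stella-GFP and the dotted line is the median of all tested genes. The 2-cell stage list lies at -1.05, lowest of the lists on each day, and the primitive endoderm list moves from 0.96 on day 3 to -0.13 on day 10.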

How the data were processed

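RNA of 12 samples was hybridised to 12 one-colour Agilent arrays; 6 enter the comparison and all 12 the fit. Per the file headers, the deposited spot intensities (processed, raw mean, local background and background-subtracted) came from Agilent Feature Extraction 9.1.3.1 with local background subtraction and detrending, written to 3 significant digits, with surrogates for signals not above background and 0 or 1 marks beside them. A further deposited table of all arrays holds, from its values, the ratio of the background-subtracted intensity to the array median, with a floor of 0.1; its making is not given in the sources used here. The genome build of the probes is not given in the sources used here.

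Probes were named by accession (22951 of 41174), the file's symbol (9755) or the authors' table (999) against RefSeq symbols, and 7469 matched none. The table's chromosome and gene order were used, without coordinates except for promoters. The brightest probe stood for a gene, and 15431 of 18917 autosomal genes with at least 2 arrays well above background were tested; 1198 probes of X and Y genes and 7471 with no chromosome were left out. R 4.3.3 with limma 3.58.1 fitted a term for each medium and day and a line term per medium (4 residual and 2.88 prior degrees of freedom), with eBayes and Benjamini-Hochberg adjustment at 0.05. In the serum-free contrast the FBS arrays add only to the estimate of the spread. The day pairs the arrays, per the labels: deviations of same-day arrays from their line's mean correlated over genes at 0.553 to 0.77. Where a gene was above background on all 3 arrays of 1 line and on none of the other, "at least" folds use the lowest signal above background per array. The script was tested on simulated data. Figures used matplotlib 3.10.9.

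Named genes are the 12 highest and 12 lowest that passed with 1 sign on 3 days and no clone name, 5 and 5 of the interaction (smallest unadjusted p where none passed), Dazl, Dppa3, Nanog, Pou5f1, Tet1, Tet2 and Tet3, members of the lists, and genes of the chromosome regions, the last chosen after their values were seen. Comparison, lists and rule were chosen with earlier results of these data known. The number of arrays, 1 per line, medium and day, limits the precision. Alternatives are in the closing section.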

Additional observations from a re-analysis of the deposited data

Results flagged for a closer look

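Y-linked genes lie outside the autosomal comparison and were read on the same arrays. Eif2s3y read -3.22, -2.45 and -1.58 in the Dazl-GFP line and 1.35, 1.22 and 1.74 in the Stella-GFP line on days 0, 3 and 10, a mean difference of -3.85. Ddx3y differed by -2.47, with the Dazl-GFP line lower on each day. Uty was above background on no Dazl-GFP array and on 3 Stella-GFP arrays, at least 3.43-fold lower in the Dazl-GFP line (measured difference -3.27). Kdm5d, also Y-linked, gave -0.91, -0.03 and 0.10. The 542 measured X-linked genes had a median difference of -0.13, -0.05 and 0.08 on the days, close to the medians of the autosomal genes.

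Several of the genes named for the interaction had a line difference of 1 sign on the 3 serum-free days and of the opposite sign on the 3 FBS days. The interaction was 1.87 for Cyp26a1, -2.44 for Olfr1189, -1.42 for Lrch3, -2.35 for Serpinb11, -1.07 for Ucn and -2.20 for Gucy1b2. In limma's test of the interaction their adjusted p was 0.406 to 0.464, and none passed. They were chosen for the smallest p of that test among genes without clone names.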

How the results depend on the processing

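The count of genes that passed was 56, and 49 with quantile normalization, 48 with the authors' table, 78 with genes above background on all 6 arrays, 71 with the mean of probes, 38 with the serum-free arrays alone and 84 with all chromosomes. The count was 0 with normexp (484 at an unadjusted p under 0.05), where a few local backgrounds of the FBS Dazl-GFP day 0 array widened the shared spread. It was 195 once local backgrounds above 10 times the array median were replaced, an alternative chosen after seeing the data. It was 27 with no filter, 128 with each probe tested separately, 203 with a variance trend, 0 with the slide as a block (2 residual degrees of freedom; 1897 unadjusted) and 11 without the replicate block that pairs the days. Leaving out 1 array gave 1 to 107. The interaction count was 0 in all of these but the slide block, with 1 gene, and the serum-free arrays alone, where it could not be fitted. The share of higher genes among the calls was 25 of 56, and 29 of 48 with the authors' table. No named line difference that passed changed sign. Chromosome 14's relative median was -0.169 with no filter and lay within 1 SD of its main value otherwise. The chromosome 12 stretch's median was -0.91 to -0.78 over the settings. Line and slide overlap on days 0 and 3 in serum-free medium and on days 3 and 10 in FBS, and dim genes have compressed differences under normexp.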
